A study of Mus musculus with 52 samples.

Results

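The vessels and the endocrine tissue of the anterior pituitary were compared in sorted cells of WT adult male mice. The 4 libraries described here are 2 replicates of GFP-positive cells, labelled vascular endothelial cells (ECs), and 2 replicates of GFP-negative cells, labelled non-endothelial, of the 52 samples in the series. They were taken by tissue, genotype and sort from the sample labels and by no cutoff on a measured value, although earlier results of these data were known. All mice carried Tie2-GFP, a transgene in which the Tie2 (Tek) promoter drives GFP in ECs, and no Cre. Pituitaries of many mice were pooled for each replicate, dissociated with papain, and viable cells that excluded propidium iodide were sorted by flow cytometry. The GFP-negative fraction therefore holds every cell without GFP and is not a pure endocrine population. The other libraries used for comparison were WT cerebellum and WT posterior pituitary of the same genotype, and anterior pituitary of Tie2-GFP; Pdgfb-CreER; BcatEx3fl adult males. In the last group Cre is active in ECs after 4-hydroxytamoxifen and removes exon 3 of beta-catenin, which stabilizes the protein. Each of those groups had 2 replicates of each sort.

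Anterior pituitary capillaries are fenestrated: their ECs are pierced by small pores, bridged by diaphragms built from PLVAP, through which hypothalamic factors reach the gland and its hormones reach the blood. The endocrine cells around them are somatotrophs (growth hormone, Gh), lactotrophs (prolactin, Prl), corticotrophs (Pomc), gonadotrophs (Lhb, Fshb) and thyrotrophs (Tshb), and the last 2 share the alpha subunit Cga. These cells release stored granules on a calcium signal, so they carry granule proteins, prohormone convertases and ion channels. Growth hormone, prolactin and thyrotropin cells depend on the POU factor Pou1f1.

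The start sites of 5 genes at opposite ends of the comparison are shown as sequence, since chromatin at starts was also measured in the ECs. The sequences are RefSeq promoters on GRCm38.p6, from 250 bases before to 50 bases after the start, written 5′ to 3′ on the gene's strand. They are of Kdr (a VEGF receptor, chr5:75978406-75978705, minus strand), Tie1 (an EC receptor of the angiopoietin system, chr4:118489800-118490099, minus strand), Mmrn1 (an EC matrix glycoprotein, chr6:60944067-60944366, plus strand), Prl (chr13:27057320-27057619, plus strand) and Pomc (chr12:3954695-3954994, plus strand). All 5 windows were searched on both strands for the same 3 motifs, and capitals mark every match. The motifs were GGAAG, the core bound by ETS factors, a motif of POU1F1 spelled ATGNATA, and the core promoter element TATAAA.
Kdr: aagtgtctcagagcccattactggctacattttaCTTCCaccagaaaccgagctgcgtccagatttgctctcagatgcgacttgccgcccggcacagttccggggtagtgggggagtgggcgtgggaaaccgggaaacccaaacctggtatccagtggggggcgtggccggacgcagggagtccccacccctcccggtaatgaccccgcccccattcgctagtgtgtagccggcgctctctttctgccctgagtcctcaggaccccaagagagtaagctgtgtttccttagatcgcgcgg
Tie1: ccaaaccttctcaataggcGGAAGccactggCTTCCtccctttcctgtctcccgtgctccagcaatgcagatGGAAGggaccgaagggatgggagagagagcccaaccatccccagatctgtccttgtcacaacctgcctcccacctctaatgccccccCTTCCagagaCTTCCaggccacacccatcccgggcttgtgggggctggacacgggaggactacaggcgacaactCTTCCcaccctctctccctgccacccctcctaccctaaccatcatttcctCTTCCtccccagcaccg
Mmrn1: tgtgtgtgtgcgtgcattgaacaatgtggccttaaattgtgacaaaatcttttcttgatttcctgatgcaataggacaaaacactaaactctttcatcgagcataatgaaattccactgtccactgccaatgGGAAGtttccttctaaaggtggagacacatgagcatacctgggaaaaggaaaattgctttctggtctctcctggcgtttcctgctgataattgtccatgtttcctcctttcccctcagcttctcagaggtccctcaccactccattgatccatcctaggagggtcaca
Prl: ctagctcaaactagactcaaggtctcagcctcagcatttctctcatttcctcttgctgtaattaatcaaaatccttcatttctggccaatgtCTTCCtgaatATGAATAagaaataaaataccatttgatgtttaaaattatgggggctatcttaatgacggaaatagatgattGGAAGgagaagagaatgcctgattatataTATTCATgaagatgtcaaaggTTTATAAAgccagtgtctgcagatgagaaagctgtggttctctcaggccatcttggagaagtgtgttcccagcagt
Pomc: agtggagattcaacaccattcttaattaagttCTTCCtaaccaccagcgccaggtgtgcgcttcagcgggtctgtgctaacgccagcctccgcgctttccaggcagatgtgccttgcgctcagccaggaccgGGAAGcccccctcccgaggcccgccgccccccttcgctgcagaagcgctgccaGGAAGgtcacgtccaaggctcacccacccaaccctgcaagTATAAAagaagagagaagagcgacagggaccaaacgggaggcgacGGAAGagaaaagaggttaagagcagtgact
GGAAG was found in windows of both kinds, with 1 match in Kdr, 7 in Tie1, 1 in Mmrn1, 2 in Prl and 4 in Pomc. ATGNATA had 2 matches in Prl and 0 in each of the other windows. TATAAA had 2 in Prl, which overlap on opposite strands, 1 in Pomc and 0 in the EC genes.

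Gene levels are given in TPM, the abundance of transcripts scaled for their length and for the total of the library. Fold changes were fitted to estimated read counts with edgeR's quasi-likelihood test and are log2 values, GFP-positive minus GFP-negative, ± SE. Depth was 31560159 and 31643746 estimated reads in the GFP-negative and 31604109 and 29837291 in the GFP-positive libraries, in replicate order, as are all paired values below. A gene was called at a Benjamini-Hochberg adjusted p under 0.05 and a change of at least 2-fold. Because a fold is fitted to reads and TPM also follows the length of the isoforms assigned, both can differ for a gene, as for Esam below. Fewer cells of a type and less RNA per cell cannot be told apart in such pools.

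Among 21343 genes tested, 1165 were higher in GFP-positive cells (5.46% of those tested) and 1252 were higher in GFP-negative cells (5.87%). With a further minimum of 10 TPM in both libraries of the higher group, 919 genes were EC-enriched (4.31%) and 549 were parenchyma-enriched (2.57%). Of the EC-enriched genes 906 were protein-coding, and of the parenchyma-enriched 538. Replicates were close: across the 9696 genes above a CPM of 1 in every library, Pearson's r of log2 values was 0.911 between the GFP-positive and 0.907 between the GFP-negative replicates, against 0.615 between the means of the fractions. These are correlations across genes, which are not independent replicates. In the 4 fits that each left out 1 of these libraries, 657 of the 1165 and 414 of the 1252 genes were called every time. The larger loss was on the endocrine side, where parenchyma-enriched genes numbered 282 without GFP-positive replicate 2 and 363 without GFP-positive replicate 1.

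**Figure D1:**
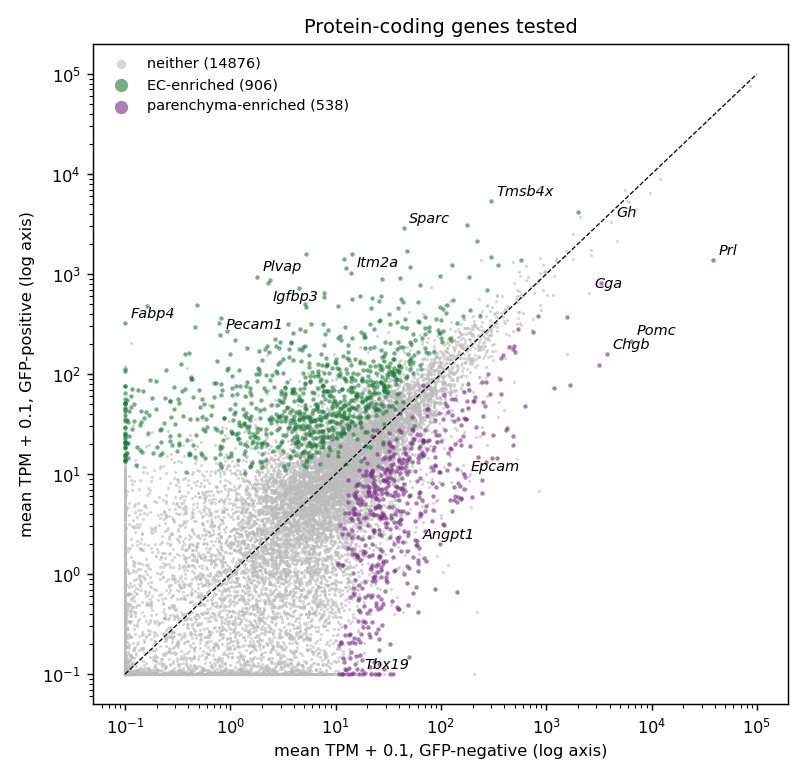
Mean TPM + 0.1 of each protein-coding gene tested in GFP-negative cells (x axis, log scale) against GFP-positive cells (y axis, log scale), with the dashed line at equal levels. Of the 906 EC-enriched genes (green) 900 lie above the line, and of the 538 parenchyma-enriched genes (purple) 534 lie below it, the calls being made on reads and not on TPM, while Gh lies close to it among the most abundant transcripts.

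The general markers of ECs set the fractions apart, which also checks the labels. Tek is on this list, and its promoter drove the GFP used for the sort, so its rise was favoured by the design. Of 22 pan-endothelial genes tested, 20 rose in GFP-positive cells (5.46% of all genes tested did) and none fell, and 19 of the 20 were called in each of the 4 fits without 1 library. The list had a median log2 fold change of 7.69, against -0.03 over all genes tested. The transcripts of Pecam1, the adhesion molecule CD31, were at 247 and 249 TPM in GFP-positive and 1.26 and 0.151 TPM in GFP-negative cells (log2 fold change 9.15 ± 0.997, adjusted p = 8.40e-06). Cdh5, the cadherin of EC junctions, was at 225 and 311 against 0.498 and 1.18 TPM (8.27 ± 0.96, adjusted p = 1.48e-05). For Kdr and Tie1, whose promoters are shown above, levels were 347 and 372 against 1.01 and 0.4199 TPM (8.87 ± 0.91, adjusted p = 4.78e-06) and 38.6 and 50.9 against 0.378 and 0 TPM (8.06 ± 1.64, adjusted p = 0.00312). No GFP-negative library came within 100-fold of a GFP-positive library for these 4 genes. For Cdh5 the log2 fold change was 8.97 without GFP-negative replicate 2, for Kdr 9.95 without GFP-negative replicate 1, for Pecam1 10.12 without GFP-negative replicate 1 and for Tie1 7.20 without GFP-negative replicate 2. Without GFP-negative replicate 1, Tie1 had no read left in that fraction.

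Esam, an immunoglobulin-like molecule of EC junctions, was the most abundant of the list, at 973 and 2225 TPM against 3.01 and 7.24 TPM. Its TPM ratio was much larger than its fitted change on reads (5.49 ± 0.56, adjusted p = 4.43e-06). Of the 22, Cldn5 and Vwf were not called. Cldn5, the tight junction claudin of brain vessels, was at 23.4 and 21.9 TPM in the ECs and 0 and 1.72 TPM in GFP-negative cells (4.85 ± 1.84, adjusted p = 0.102). It was called in the fit without GFP-negative replicate 2, which holds all of its GFP-negative reads (adjusted p = 0.0152). Vwf, the clotting factor stored by ECs of larger vessels, was at 0.296 and 0.137 TPM in ECs and 0 and 2.02 TPM in GFP-negative cells, and its direction turned without GFP-negative replicate 2 (log2 fold change -2.47 ± 1.27 with it and 6.92 without it). For Esam the log2 fold change was 6.25 without GFP-negative replicate 2.

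**Figure D2:**
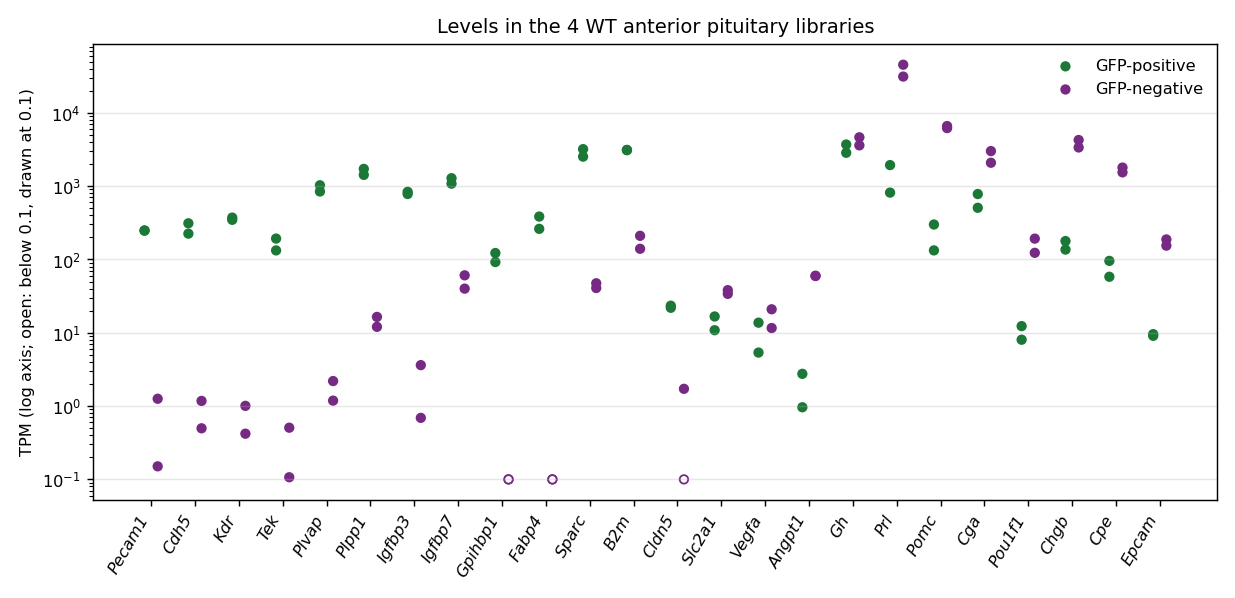
TPM (log axis) of 24 genes in each of the 4 libraries, green for GFP-positive and purple for GFP-negative cells, with open symbols for values under 0.1 drawn at 0.1. EC genes from Pecam1 to B2m sit high in both GFP-positive libraries and endocrine genes from Prl to Epcam high in both GFP-negative libraries, and the exceptions are Slc2a1, Vegfa and Gh, whose fractions are close or overlap.

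Of 12 genes of fenestrae and caveolae tested, 11 rose in ECs and none fell, with a median log2 fold change of 6.02. Of the 11, 10 were called in every fit without 1 library. Plvap (chr8:71497765-71511752 on GRCm38), the protein of fenestral and caveolar diaphragms, was at 845 and 1028 TPM in ECs and 2.19 and 1.19 TPM in GFP-negative cells (8.96 ± 2.31, adjusted p = 0.0149). Its call was lost without GFP-negative replicate 2, at a log2 fold change of 8.64 (adjusted p = 0.0571). In both EC libraries Plvap stood above Pecam1, Cdh5, Kdr and Tie1. Plpp1, a lipid phosphate phosphatase, was the most abundant of the list at 1425 and 1719 against 16.4 and 12.05 TPM (6.82 ± 1.10, adjusted p = 0.00036), and Exoc3l2 was at 192 and 458 against 1.17 and 0.185 TPM (7.24 ± 1.09, adjusted p = 0.000228). For Exoc3l2 the log2 fold change was 9.52 without GFP-negative replicate 1 and 6.56 without GFP-negative replicate 2 and for Plvap 9.77 without GFP-negative replicate 1.

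Genes of the caveolar coat were called together in ECs. Cav1, the main caveolin, was at 68.4 and 24.1 TPM in ECs against 0 and 0.0277 TPM, where few reads gave a count ratio of 1921 (95% counting interval 531 to 15866). Cav2, its partner, was at 69.4 and 87.7 against 0.0791 and 1.35 TPM (7.09 ± 1.24, adjusted p = 0.000743). The cavins Cavin1, Cavin2 and Cavin3, which coat the bulb, were all called, and Cavin2 showed 102 and 117 against 1.26 and 0.952 TPM (6.48 ± 0.60, adjusted p = 1.75e-06). The ATPase Ehd4, of a family that holds the caveolar neck, was at 199.8 and 429 against 3.39 and 3.49 TPM (5.57 ± 0.35, adjusted p = 2.36e-08). Pacsin2, a membrane-bending protein also found outside ECs, was the exception: its levels of 14.5 and 39.02 TPM in ECs and 26.2 and 24.3 TPM in GFP-negative cells overlapped (adjusted p = 0.571). For Cav2 the log2 fold change was 6.32 without GFP-negative replicate 1 and 10.12 without GFP-negative replicate 2.

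Of 18 genes listed for permeable capillaries, 11 rose in ECs and 2 fell (median log2 fold change 4.88). Among all genes tested 5.46% rose and 5.87% fell. Igfbp3 and Igfbp7, secreted proteins that bind insulin-like growth factors, were at 781 and 837 against 3.62 and 0.6905 TPM (8.56 ± 1.67, adjusted p = 0.00199) and 1081 and 1283 against 39.99 and 60.7 TPM (4.43 ± 0.72, adjusted p = 0.000378). Rgcc, a cell cycle regulator, was at 565 and 608 against 5.78 and 9.497 TPM (6.21 ± 0.98, adjusted p = 0.000312). These 3 transcripts exceeded Cdh5 in both EC libraries. For Igfbp3 the log2 fold change was 10.71 without GFP-negative replicate 1 and 7.89 without GFP-negative replicate 2.

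Among genes that handle lipids, Fabp4 and Gpihbp1 were called higher in ECs and Lpl and Cd36 higher in GFP-negative cells. Such genes were not tested as a group. Fabp4, a fatty acid carrier, was at 385 and 262 TPM in ECs and had no read in either GFP-negative library, so that it was at least 6381-fold higher (against a floor of 3 counts over the GFP-negative group, adjusted p = 8.85e-05). Gpihbp1, which anchors lipoprotein lipase to the capillary wall, was at 92.2 and 122 TPM and likewise had no read in GFP-negative cells (at least 2104-fold, adjusted p = 0.000128). The enzyme it anchors, Lpl, was higher in GFP-negative cells, at 3.599 and 5.05 TPM in ECs and 18.8 and 10.3 TPM in GFP-negative cells. The call of Lpl (adjusted p = 0.00757) was lost in 3 of 4 fits (adjusted p = 0.0813 without GFP-negative replicate 1, 0.0719 without GFP-positive replicate 1 and 0.0873 without GFP-positive replicate 2). Cd36, a fatty acid translocase of muscle and fat capillaries, had no read in the ECs and 3.63 and 1.56 TPM in GFP-negative cells (at least 112-fold lower, adjusted p = 0.00428). Esm1, a proteoglycan of sprouting ECs, and Igfbp5 did not pass the test, and Igfbp5 was well expressed on both sides, at 192 and 226 TPM in ECs and 129 and 148 TPM in GFP-negative cells.

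Genes of the blood-brain barrier were split. Of 22 tested, 7 were called higher in these ECs and 4 higher in GFP-negative cells (median log2 fold change 0.999, or 0.95 with genes at 0 in 1 fraction set to their bound). Shares over all genes tested were 5.46% and 5.87%. The glucose transporter Slc2a1 (GLUT1) was at 10.8 and 16.7 TPM in ECs and 38.1 and 33.9 TPM in GFP-negative cells (-0.96 ± 0.36, adjusted p = 0.097), both ECs below both GFP-negative libraries. Mfsd2a, the lipid transporter of the barrier, was nearly absent from ECs, at 0 and 0.0176 TPM, and Spock2, a matrix proteoglycan, was at 1.24 and 0.623 against 23.5 and 37.9 TPM (-5.45 ± 0.47, adjusted p = 9.81e-07). The efflux pumps were different: Abcg2 was at 406 and 542 against 13.8 and 7.09 TPM (5.79 ± 0.80, adjusted p = 8.87e-05) and Abcb1a at 186 and 173 against 1.05 and 2.99 TPM (4.54 ± 0.81, adjusted p = 0.000922). Itm2a, a membrane protein, was among the most abundant transcripts of ECs at 1019 and 1045 against 8.47 and 19.1 TPM (6.40 ± 0.73, adjusted p = 1.25e-05), and the Wnt target and inhibitor Apcdd1 was at 23.2 and 32.7 against 0.0993 and 0.802 TPM (5.47 ± 0.93, adjusted p = 0.000589). For Abcb1a the log2 fold change was 5.14 without GFP-negative replicate 2, for Apcdd1 4.81 without GFP-negative replicate 1 and 7.52 without GFP-negative replicate 2 and for Itm2a 7.08 without GFP-negative replicate 2.

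Of 28 endothelial transcription factors, 19 rose in ECs and none fell (median log2 fold change 3.80), and 14 of the 19 were called in every fit without 1 library. Lmo2, an adaptor of GATA and TAL complexes, was the highest at 454 and 627 against 17.2 and 33.8 TPM (4.54 ± 0.61, adjusted p = 6.71e-05). Mef2c was at 205 and 331 against 7.28 and 2.74 TPM (4.88 ± 0.48, adjusted p = 3.37e-06), and the ETS factor Ets1 at 156 and 223 against 1.82 and 8.32 TPM (5.69 ± 1.10, adjusted p = 0.00185). Sox17 and Tal1 had no read in GFP-negative cells and were at least 378-fold and 751-fold higher (adjusted p = 0.000807 and 0.000383), although their levels in ECs were low, 10.3 and 20.7 TPM for Sox17 and 3.97 and 5.58 TPM for Tal1. The flow-responsive factor Klf2 was at 125 and 159 against 13.3 and 17.2 TPM (3.30 ± 0.60, adjusted p = 0.00103), and the hypoxia factor Epas1 at 75.4 and 90.2 against 5.52 and 5.74 TPM (3.76 ± 0.50, adjusted p = 6.37e-05). Erg, a pan-endothelial ETS factor, was at 23.2 and 22.6 against 0 and 1.61 TPM and did not pass (adjusted p = 0.0561), but did without GFP-negative replicate 2 (adjusted p = 0.00301) or without GFP-positive replicate 2 (0.0408). For Mef2c the log2 fold change was 6.04 without GFP-negative replicate 1.

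**Figure D3:**
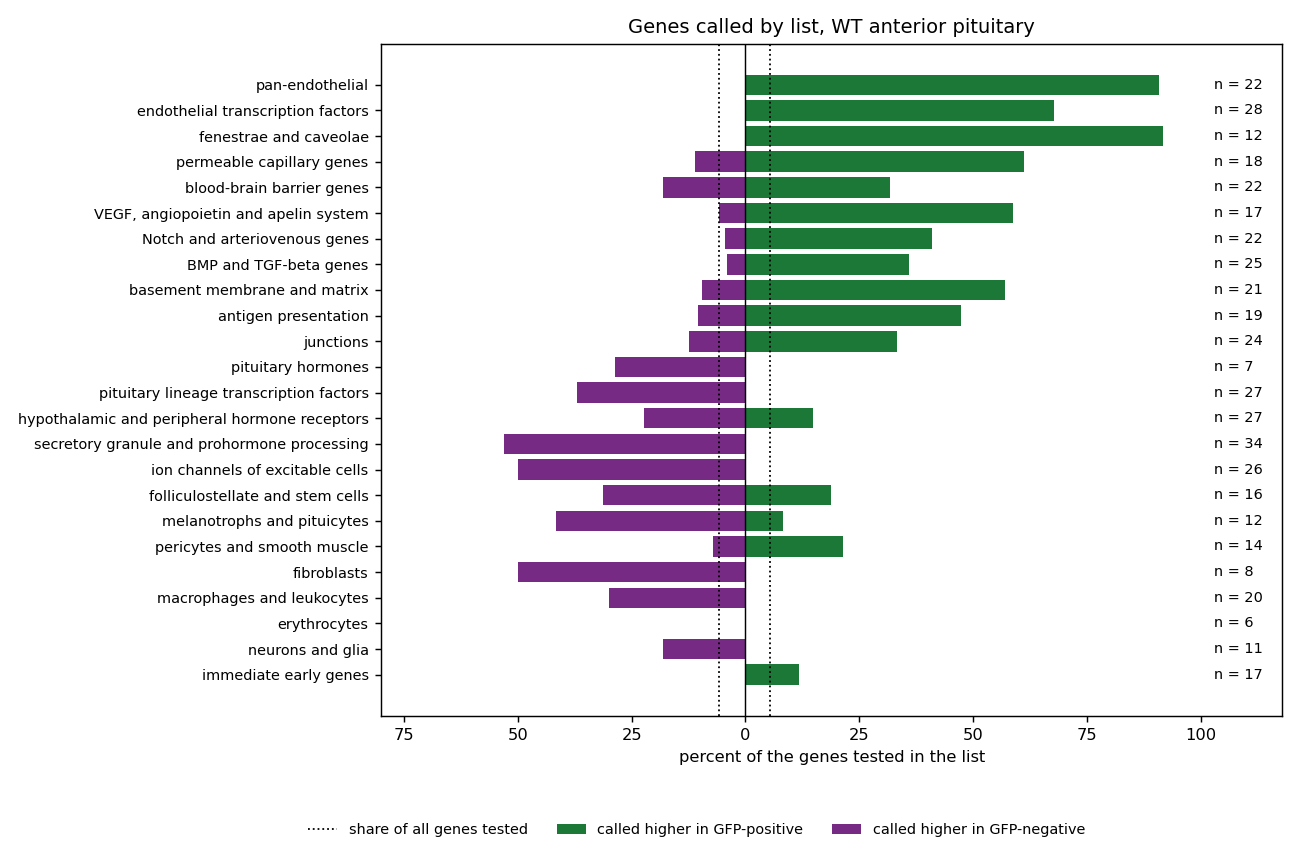
Percent of the genes tested in each of 24 gene lists that were called higher in GFP-positive cells (green, to the right) or in GFP-negative cells (purple, to the left), with dotted lines at the shares over all genes tested, 5.46% and 5.87%. The pan-endothelial, endothelial factor and fenestrae lists extend to the right only, the hormone, lineage factor, granule and channel lists to the left only, and the other EC lists, receptors and junctions extend both ways, 2 of 18 permeable capillary, 2 of 19 antigen presentation and 2 of 21 matrix genes being called to the left.

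Receptors for vascular growth factors were higher in ECs, and their ligands mostly did not pass the test. Of 17 genes of the VEGF, angiopoietin and apelin system tested, 10 rose in ECs, all of which were called in each fit without 1 library, and 1 rose in GFP-negative cells. Shares over all genes tested were 5.46% and 5.87%. Tek is among the 10, and its promoter drove the GFP used for the sort, so its rise was favoured by the design. The receptor Tek of the angiopoietins was at 133 and 193 against 0.107 and 0.507 TPM (9.08 ± 1.64, adjusted p = 0.00099), and its agonist Angpt1 at 2.75 and 0.963 TPM in ECs against 59.5 and 59.96 TPM in GFP-negative cells (-4.97 ± 0.98, adjusted p = 0.00217). Its other ligand Angpt2, which ECs make and store, was at 51.3 and 28.4 against 1.05 and 0.917 TPM (4.18 ± 0.65, adjusted p = 0.000257). The 2 ligands of 1 receptor were thus each called, in opposite directions. For Angpt1 the log2 fold change was -5.93 without GFP-positive replicate 1 and -4.22 without GFP-positive replicate 2 and for Tek 8.23 without GFP-negative replicate 1. Without GFP-negative replicate 2, Tek had 1 read left in that fraction.

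The VEGF receptor Flt1 was at 209.7 and 232 against 0.186 and 1.85 TPM (6.94 ± 1.12, adjusted p = 0.000361), the coreceptor Nrp1 at 160.4 and 196 against 5.104 and 3.603 TPM (5.27 ± 0.66, adjusted p = 3.58e-05) and the apelin receptor Aplnr at 114 and 62.8 against 0.557 and 0.1104 TPM (7.13 ± 1.72, adjusted p = 0.00993). Vegfa itself was low and overlapped, at 5.37 and 13.7 TPM in ECs and 11.6 and 20.9 TPM in GFP-negative cells (log2 fold change -0.31 ± 1.001, adjusted p = 0.97), and the sign of its change turned without GFP-negative replicate 2 (0.23) or GFP-positive replicate 1 (0.20). Vegfb, Vegfd, Pgf and Apln did not pass either. For Aplnr the log2 fold change was 9.09 without GFP-negative replicate 1 and 6.49 without GFP-negative replicate 2, for Flt1 6.23 without GFP-negative replicate 1 and 9.37 without GFP-negative replicate 2 and for Nrp1 5.93 without GFP-negative replicate 1.

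Across 36 ligand and receptor pairs, which hold 33 ligands and 30 receptors, 8 ligands and 17 receptors were higher in ECs and 5 ligands and 3 receptors in GFP-negative cells. Of the pairs, 13 paired a ligand that was not called with a receptor higher in ECs, 4 paired a ligand higher in GFP-negative cells with a receptor higher in ECs, and 5 had both sides higher in ECs. In 1 pair, Pdgfb and Pdgfrb, the ligand was higher in ECs and the receptor in GFP-negative cells. No background over other pairs was computed, so that nothing is read from these counts. Pdgfb, the signal of ECs to pericytes, was at 44.6 and 27.5 against 0.47 and 1.07 TPM (4.99 ± 1.21, adjusted p = 0.00993), and Pdgfrb, its receptor, at 0.347 and 0.764 TPM in ECs and 3.33 and 3.02 TPM in GFP-negative cells. The call of Pdgfrb (adjusted p = 0.0184) was lost in 2 fits (adjusted p = 0.0773 without GFP-negative replicate 1 and 0.164 without GFP-positive replicate 1). The 4 pairs towards ECs were Angpt1 to Tek, Edn3 to Ednrb, Cxcl12 to Ackr3 and Wnt4 to Fzd4. The endothelin receptor Ednrb was at 96.9 and 137 against 5.099 and 5.77 TPM (4.37 ± 0.92, adjusted p = 0.00371) while Edn3 was at 0.349 and 1.56 TPM in GFP-negative cells, a low level. The chemokine Cxcl12 was at 0.389 and 2.83 TPM in ECs and 17.2 and 18.98 TPM in GFP-negative cells, and its scavenging receptor Ackr3 at 22.9 and 15.5 against 4.44 and 1.18 TPM (3.19 ± 0.57, adjusted p = 0.00104). The calls of Cxcl12 (adjusted p = 0.121 without GFP-positive replicate 1), Edn3 (adjusted p = 0.0544 without GFP-negative replicate 2 and 0.109 without GFP-positive replicate 2) and Wnt4 (adjusted p = 0.0675 without GFP-negative replicate 2, 0.163 without GFP-positive replicate 1 and 0.172 without GFP-positive replicate 2) were not kept in all fits. Adrenomedullin (Adm) and its receptor Calcrl were both EC genes, Adm at 21.5 and 26.7 against 0.334 and 0 TPM (6.90 ± 1.66, adjusted p = 0.0102) and Calcrl at 62.3 and 109 against 1.38 and 9.81 TPM (4.66 ± 0.66, adjusted p = 0.000123). For Ackr3 the log2 fold change was 4.20 without GFP-negative replicate 1, for Adm 6.05 without GFP-negative replicate 2 and for Pdgfb 5.72 without GFP-negative replicate 2. Without GFP-negative replicate 1, Adm had no read left in that fraction.

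In the Notch and arteriovenous list 9 of 22 genes rose in ECs and 1 fell (median log2 fold change 2.05). Among all genes tested 5.46% rose and 5.87% fell. The venous receptor Ephb4 and its arterial ligand Efnb2 were both present, at 14.6 and 18 against 0.129 and 0.0384 TPM (7.41 ± 1.17, adjusted p = 0.000298) and 21.4 and 53.7 against 3.34 and 4.54 TPM (3.07 ± 0.50, adjusted p = 0.000416). Dll4, the Notch ligand of ECs, was at 25.1 and 94.1 TPM in ECs and 0 and 0.0262 TPM in GFP-negative cells, and the Notch target Hes1 at 65.1 and 83 against 1.64 and 4.72 TPM (4.61 ± 0.96, adjusted p = 0.00325). Some genes of larger vessels were at 0 in ECs: Gja5 and Ackr1, markers of arteries and venules, had no read in the ECs, nor had the selectins Sele and Selp. For Ephb4 the log2 fold change was 8.89 without GFP-negative replicate 1 and for Hes1 5.56 without GFP-negative replicate 2.

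Of 25 BMP and TGF-beta genes, 9 rose in ECs and 1, the receptor Bmpr1a, fell (median log2 fold change 0.27). Over all genes tested, 5.46% were called higher and 5.87% lower in ECs. Acvrl1 (ALK1), the BMP receptor of ECs, was at 24.8 and 57.7 TPM in ECs against 0 and 0.113 TPM, where few reads gave a count ratio of 1886 (95% counting interval 645 to 9148). Its partner Bmpr2 was at 61.8 and 90.7 against 4.81 and 9.89 TPM (2.92 ± 0.29, adjusted p = 4.09e-06). The type I receptor Bmpr1a was higher in GFP-negative cells, at 0.2204 and 0.942 TPM in ECs and 28.3 and 30.6 TPM in GFP-negative cells (-4.71 ± 1.14, adjusted p = 0.00993), a call that was lost without GFP-positive replicate 1 (adjusted p = 0.0661). The BMP target genes Id1 and Id3 were at 84.2 and 62.04 against 2.85 and 0.0568 TPM (5.33 ± 0.96, adjusted p = 0.000954) and 280.2 and 285 against 31.6 and 14.5 TPM (4.10 ± 0.56, adjusted p = 7.95e-05). For Bmpr1a the log2 fold change was -3.89 without GFP-positive replicate 1 and -5.88 without GFP-positive replicate 2 and for Id1 4.50 without GFP-negative replicate 2. Without GFP-negative replicate 1, Id1 had 2 reads left in that fraction.

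Of 21 basement membrane and matrix genes, 12 rose in ECs and 2 fell (median log2 fold change 3.28). Among all genes tested 5.46% rose and 5.87% fell. Sparc, a collagen-binding matrix protein, was at 2527 and 3196 against 40.8 and 47.3 TPM (5.95 ± 0.39, adjusted p = 2.86e-08), the highest of the list. The collagen IV chains Col4a1 and Col4a2 were at 662 and 1160 against 36.8 and 45.4 TPM (5.52 ± 0.72, adjusted p = 4.98e-05) and 238 and 322 against 3.72 and 5.22 TPM (5.22 ± 0.82, adjusted p = 0.000269). Perlecan, Hspg2, was at 121 and 132 against 3.92 and 1.59 TPM (5.12 ± 0.75, adjusted p = 0.000155). Mmrn1, whose promoter is shown above, was at 39.03 and 39.6 TPM in ECs with no read in GFP-negative cells (at least 5776-fold, adjusted p = 3.86e-07). Col18a1, the source of endostatin, went the other way, at 0.0523 and 0.0126 TPM in ECs and 4.6 and 1.85 TPM in GFP-negative cells (adjusted p = 0.00154). The other gene that fell was the collagen IV chain Col4a5, below 1 TPM in all 4 libraries, whose call (adjusted p = 0.0342) was lost without GFP-negative replicate 2 (adjusted p = 0.169), GFP-positive replicate 1 (0.0735) or GFP-positive replicate 2 (0.213). For Col4a2 the log2 fold change was 5.81 without GFP-negative replicate 2.

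The class I genes B2m, H2-D1 and H2-K1 were higher in ECs. Of 19 genes of antigen presentation and interferon response, 9 rose in ECs, 2 fell and 8 were not called. Among all genes tested 5.46% rose and 5.87% fell. Of the 9, 6 kept their call in all 4 fits that each left out 1 library. The class I light chain B2m was at 3124 and 3092 against 139.8 and 210.1 TPM (4.22 ± 0.49, adjusted p = 1.40e-05), and the heavy chain genes H2-D1 and H2-K1 at 2141 and 2089 against 161 and 283 TPM (3.12 ± 0.35, adjusted p = 1.00e-05) and 574 and 467 against 37.8 and 49.04 TPM (3.48 ± 0.65, adjusted p = 0.0013). Reads of the H2 genes can be shared among near-identical copies, so that the split between them is uncertain. Ifitm3, an interferon-induced membrane protein, was at 736 and 813 against 38.8 and 86.99 TPM (3.66 ± 0.44, adjusted p = 2.06e-05). The peptide transporter genes Tap1 (adjusted p = 0.111 without GFP-negative replicate 1 and 0.0523 without GFP-negative replicate 2) and Tap2 (0.175 and 0.114 in these fits and 0.152 without GFP-positive replicate 1) lost the call, as did Bst2, an interferon-induced membrane protein (0.109 and 0.0544 without GFP-negative replicates 1 and 2). Both genes that fell belong to class II, the antigens of macrophages and dendritic cells: H2-Eb1 had no read in ECs, and Cd74 was at 27.4 and 8.33 TPM in ECs and 110.4 and 137 TPM in GFP-negative cells. The calls of H2-Eb1 (adjusted p = 0.0537 without GFP-positive replicate 1 and 0.0537 without GFP-positive replicate 2) and Cd74 (adjusted p = 0.0558 without GFP-negative replicate 1, 0.0613 without GFP-negative replicate 2 and 0.256 without GFP-positive replicate 2) were not kept in all fits. For Ifitm3 the log2 fold change was 4.38 without GFP-negative replicate 2.

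Of 24 junction genes, 8 were called higher in ECs and 3 higher in GFP-negative cells (median log2 fold change -1.68, or -1.24 with genes at 0 in 1 fraction set to their bound). Shares over all genes tested were 5.46% and 5.87%. Jam2, a junctional adhesion molecule, was at 64.3 and 77.2 against 2.65 and 6.25 TPM (3.21 ± 0.38, adjusted p = 1.89e-05), and the gap junction gene Gja1 (connexin 43) at 474 and 439.8 against 1.02 and 42.4 TPM (5.88 ± 0.48, adjusted p = 5.93e-07), the second GFP-negative value standing far above the first. The epithelial adhesion gene Epcam was at 9.58 and 9.09 TPM in ECs and 154 and 187 TPM in GFP-negative cells (-4.23 ± 0.38, adjusted p = 2.22e-06). N-cadherin, Cdh2, was at 3.98 and 4.96 against 12.02 and 17.6 TPM, and its call (log2 fold change -1.75 ± 0.44) was lost in 3 of 4 fits (adjusted p = 0.0972 without GFP-negative replicate 2, 0.12 without GFP-positive replicate 1 and 0.104 without GFP-positive replicate 2). For Gja1 the log2 fold change was 6.68 without GFP-negative replicate 2.

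By size of change, the rule named Fabp4, Mmrn1, Tmem88, H2-T24, Gpihbp1, Robo3, Lims2, Syt15, Vamp5, Il2rg, Ntf3 and Tgtp1 among the EC-enriched genes. All 12 had no read in GFP-negative cells, so each fold is a lower bound, from at least 1732-fold for Tgtp1 to at least 6381-fold for Fabp4. By level, the most abundant EC-enriched transcripts were Tmsb4x, Actb, B2m, Sparc, H2-D1, Tm4sf1, Esam, Plpp1, Apoe, Adgrl4, Ppia and Myl6. Tmsb4x (thymosin beta 4, an actin-binding peptide) was at 5928 and 4821 against 302 and 289.9 TPM (4.11 ± 0.53, adjusted p = 4.74e-05). The calls of Actb (adjusted p = 0.0927 without GFP-negative replicate 1), Apoe (adjusted p = 0.0657 without GFP-negative replicate 1 and 0.0602 without GFP-negative replicate 2) and Ppia (adjusted p = 0.116 without GFP-negative replicate 1 and 0.0968 without GFP-positive replicate 1) did not stay in every fit without 1 library.

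Hormone transcripts made up 4.37% and 6.04% of all TPM in GFP-negative cells and 0.683% and 0.439% in ECs. All 7 hormone genes had log2 fold changes below 0, but only 2, Prl and Pomc, passed the test (5.87% of all genes were called in this direction), and the median of the list was -2.73. Prl (chr13:27057570-27065205) was at 1937 and 816 TPM in ECs and 31239 and 45324 TPM in GFP-negative cells (-4.87 ± 0.96, adjusted p = 0.00277). Pomc was at 299.7 and 133 TPM in ECs and 6188 and 6604 TPM in GFP-negative cells (-5.05 ± 1.37, adjusted p = 0.0207), a call that was lost without GFP-positive replicate 2 (-4.42, adjusted p = 0.0973). Tshb was at 14.2 and 24.4 against 240.3 and 306 TPM (-3.83 ± 1.68, adjusted p = 0.181), Lhb at 17.8 and 23.7 against 94.1 and 188 TPM (-2.73 ± 1.78, adjusted p = 0.366), and Fshb at 84.8 and 34.9 against 226 and 318 TPM (-1.98 ± 1.20, adjusted p = 0.319). For each of these 5 genes both GFP-positive libraries were below both GFP-negative libraries, as were 29.9% of the 16320 protein-coding genes tested. For Pomc the log2 fold change was -5.65 without GFP-positive replicate 1 and -4.42 without GFP-positive replicate 2 and for Prl -4.26 without GFP-positive replicate 2.

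Gh was the hormone gene whose fractions overlapped. Transcripts of Gh (chr11:106300271-106301865) were at 3698 and 2852 TPM in ECs and 3600 and 4640 TPM in GFP-negative cells, so that the fractions overlapped (-0.44 ± 1.19, adjusted p = 0.94). Cga stood between, at 780.2 and 507 against 2085 and 3008 TPM (-1.95 ± 1.06, adjusted p = 0.271). Mean TPM in ECs was 79.5% of that in GFP-negative cells for Gh, 25.3% for Cga, 21.98% for Fshb, 14.7% for Lhb, 7.08% for Tshb, 3.596% for Prl and 3.38% for Pomc. The ratio of Gh to Prl was 1.91 and 3.49 in the GFP-positive libraries and 0.115 and 0.102 in the GFP-negative libraries. In stabilized anterior pituitary the same ratio was 6.91 and 3.59 against 0.444 and 0.586, again higher in both GFP-positive libraries. There Gh itself was at 3467 and 2676 TPM in GFP-positive and 7456 and 14329 TPM in GFP-negative cells, without overlap. What part endocrine cells or their RNA in the GFP-positive sort play in these values was not tested.

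**Figure D4:**
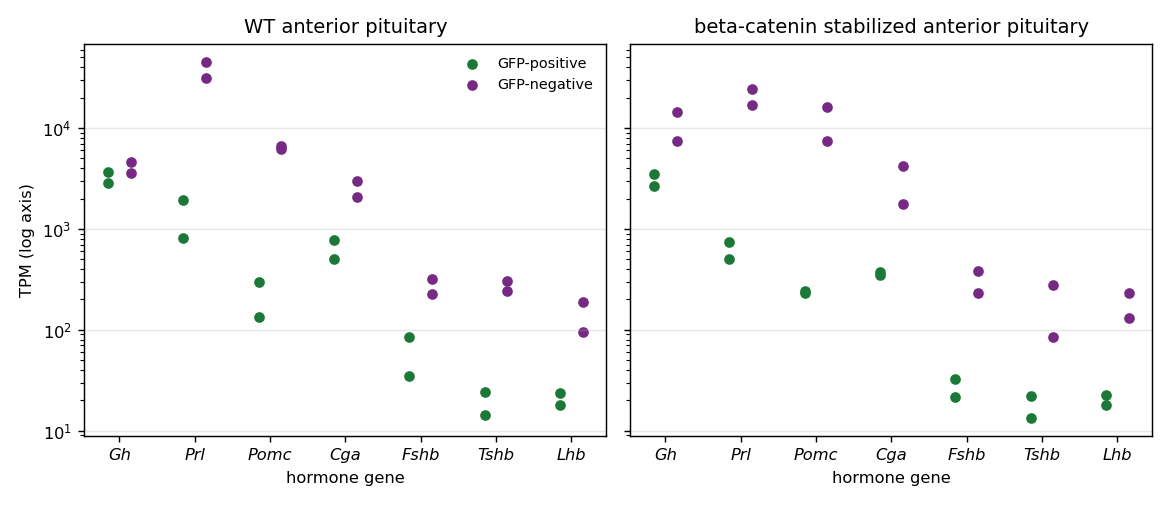
TPM (log axis) of the 7 hormone genes in each GFP-positive (green) and GFP-negative (purple) library of WT (left) and beta-catenin stabilized (right) anterior pituitary. Gh is at 2852 to 4640 TPM in all 4 WT libraries, whereas Prl and Pomc differ between the fractions in both panels.

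Of 27 factors that specify endocrine lineages, 10 rose in GFP-negative cells and none rose in ECs (median log2 fold change -3.76), and 6 of the 10 were called in every fit without 1 library. Tbx19, the T-box factor of Pomc cells, was at 12.3 and 21.1 TPM with no read in ECs (at least 1015-fold, adjusted p = 0.00159). Six6 was at 0.763 and 0.855 TPM in ECs and 25.9 and 20.4 TPM in GFP-negative cells (-4.95 ± 0.74, adjusted p = 0.00035). The estrogen receptor Esr1, abundant in lactotrophs and gonadotrophs, was at 5.96 and 2.48 against 44.2 and 42.1 TPM (-4.48 ± 1.01, adjusted p = 0.0066). Pou1f1 was at 12.3 and 8.04 against 123 and 192 TPM and narrowly missed the threshold (-3.76 ± 1.20, adjusted p = 0.0501), unlike in the fit of the 4 libraries alone (adjusted p = 0.005). The sum of the list in ECs was largely Egr1, an immediate early gene that acts in gonadotrophs, at 514 and 693 TPM in ECs and 286 and 392 TPM in GFP-negative cells (0.76 ± 0.64, adjusted p = 0.508). Foxl2, known from gonadotrophs and thyrotrophs, was higher in both ECs, at 5.75 and 10.95 TPM against 0.8504 and 0.8299 TPM (3.27 ± 1.23, adjusted p = 0.104), without passing.

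Of 34 secretory granule and prohormone processing genes, 18 rose in GFP-negative cells and none in ECs, 33 had log2 fold changes below 0, and the median was -3.77. Of the 18, 9 were called in every fit without 1 library. Chgb, the granin of the granule core, was at 178 and 136 TPM in ECs and 3370 and 4257 TPM in GFP-negative cells (-4.55 ± 0.81, adjusted p = 0.000921), and Chga at 36.3 and 18.8 against 401 and 429.9 TPM (-3.80 ± 0.80, adjusted p = 0.00357). Carboxypeptidase E (Cpe), which trims hormone precursors, was at 95.6 and 58.1 against 1542 and 1792 TPM (-4.37 ± 0.39, adjusted p = 1.39e-06), and Scg3, a granin that binds the granule membrane, at 14.2 and 14.5 against 302 and 312 TPM (-4.23 ± 0.54, adjusted p = 4.40e-05). Snap25, a SNARE of exocytosis, was at 5.61 and 5.21 against 108 and 134 TPM (-4.43 ± 0.75, adjusted p = 0.000589). For Chga the log2 fold change was -4.46 without GFP-positive replicate 1 and -3.15 without GFP-positive replicate 2.

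Of 26 ion channels of excitable cells, 13 rose in GFP-negative cells and none rose in ECs (median log2 fold change -4.24). The sodium leak channel Nalcn was at 0.189 and 1.204 TPM in ECs and 12.9 and 6.58 TPM in GFP-negative cells (-5.73 ± 1.30, adjusted p = 0.00625). Cacna2d1, a calcium channel subunit, was at 4.28 and 3.63 against 57.4 and 68.7 TPM (-5.08 ± 1.20, adjusted p = 0.00857). The call of Cacna2d1 was lost without GFP-positive replicate 2 (adjusted p = 0.0525), and 5 of the 13 stayed called in every such fit. For Nalcn the log2 fold change was -5.06 without GFP-negative replicate 1.

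Hormone receptors were called in both directions. Of 27 receptors of hypothalamic and peripheral hormones tested, 6 rose in GFP-negative cells and 4 in ECs. Shares over all genes tested were 5.87% and 5.46%. The 6 were the receptors Crhr1, Trhr, Drd2 and Avpr1b, which respond to hypothalamic corticotropin-releasing hormone, thyrotropin-releasing hormone, dopamine and vasopressin, with Esr1 and Igf1r. Trhr had no read in ECs and was at 7.65 and 5.696 TPM in GFP-negative cells, and Drd2 was at 1.01 and 0 against 20.7 and 29.8 TPM (-5.46 ± 1.47, adjusted p = 0.0235). The 4 were Lepr, Insr, Ghr and Nr3c1, receptors for leptin, insulin, growth hormone and glucocorticoid. Lepr was at 17.3 and 25.6 TPM in ECs and 0.0364 and 0.296 TPM in GFP-negative cells (8.68 ± 1.30, adjusted p = 0.000191), and Insr at 45.4 and 55.6 against 10.4 and 9.96 TPM (2.99 ± 0.42, adjusted p = 0.000114). Ghr was at 14.9 and 10.97 against 1.53 and 2.06 TPM (2.42 ± 0.54, adjusted p = 0.00562). In fits without 1 library, Lepr, Insr, Drd2 and Esr1 were always called. The calls of Ghr (adjusted p = 0.0845 without GFP-negative replicate 1 and 0.0648 without GFP-positive replicate 1), Nr3c1 (adjusted p = 0.0779 without GFP-negative replicate 1), Igf1r (adjusted p = 0.105 without GFP-positive replicate 2), Trhr (adjusted p = 0.0821 without GFP-positive replicate 1 and 0.0892 without GFP-positive replicate 2), Crhr1 (adjusted p = 0.0832 without GFP-negative replicate 1, 0.172 without GFP-positive replicate 1 and 0.18 without GFP-positive replicate 2) and Avpr1b (adjusted p = 0.0813 without GFP-negative replicate 1, 0.0668 without GFP-negative replicate 2 and 0.191 without GFP-positive replicate 2) were not. For Drd2 the log2 fold change was -4.32 without GFP-positive replicate 2. Without GFP-positive replicate 1, Drd2 had no read left in that fraction.

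By size of change the rule named Asic4, Tbx19, Ap1m2, Plekha7, Mum1l1, Fmn2, Rnf180, Pgbd5, Arhgef25, Ctxn1, Tnnt1 and Rsph1 among the parenchyma-enriched genes, all without a read in ECs and from at least 325-fold (Rsph1) to at least 1659-fold (Asic4) higher in GFP-negative cells. Of these, Mum1l1 (adjusted p = 0.0695 without GFP-positive replicate 1 and 0.074 without GFP-positive replicate 2), Ctxn1 (adjusted p = 0.0562 without GFP-positive replicate 1 and 0.0597 without GFP-positive replicate 2), Tnnt1 (adjusted p = 0.115 without GFP-positive replicate 1 and 0.122 without GFP-positive replicate 2) and Rsph1 (adjusted p = 0.0846 without GFP-positive replicate 1 and 0.0903 without GFP-positive replicate 2) lost their call in 2 fits. By level the rule named Prl, Pomc, Chgb, Gnas, Nnat, Cpe, Cst3, Scg5, Pdia3, Tceal9, Uchl1 and Agap1. Gnas, the stimulatory G protein of hypothalamic receptors, was at 765 and 857 TPM in ECs and 3137 and 3482 TPM in GFP-negative cells (-1.998 ± 0.31, adjusted p = 0.000277), and Nnat at 163 and 83.5 against 2988 and 3402 TPM (-4.81 ± 1.09, adjusted p = 0.00603). Among these, Pdia3 (adjusted p = 0.153 without GFP-negative replicate 1, 0.121 without GFP-negative replicate 2, 0.171 without GFP-positive replicate 1 and 0.194 without GFP-positive replicate 2) and Agap1 (adjusted p = 0.274 without GFP-negative replicate 1, 0.181 without GFP-negative replicate 2, 0.277 without GFP-positive replicate 1 and 0.279 without GFP-positive replicate 2) were called in no fit without 1 library, and Scg5 (adjusted p = 0.0762 without GFP-positive replicate 2), Tceal9 (adjusted p = 0.0823 without GFP-positive replicate 1 and 0.0515 without GFP-positive replicate 2) and Uchl1 (adjusted p = 0.0657 without GFP-negative replicate 1 and 0.166 without GFP-positive replicate 2) not in all of them.

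Other cell types were measured by their marker lists. Of 16 genes of folliculostellate and stem cells, 5 rose in GFP-negative cells and 3 in ECs, with sums of 691 and 756 TPM in ECs and 238 and 202 TPM in GFP-negative cells. Sox2, the factor of pituitary stem cells, was at 0.132 and 0.0728 TPM in ECs and 16.6 and 10.2 TPM in GFP-negative cells (-6.88 ± 1.41, adjusted p = 0.00321). The 3 in ECs, Gja1, Vim and Ednrb, are not specific to those cells, and the call of Vim was lost without GFP-negative replicate 1 (adjusted p = 0.0783). S100b, the classical folliculostellate marker, was near 0 in every library, at 0.01998 and 0.0703 TPM in ECs and 0 and 0.0457 TPM in GFP-negative cells. Of 8 fibroblast genes, 4 rose in GFP-negative cells and none in ECs, their summed level being 30.3 and 48.1 TPM in ECs and 191 and 219 TPM in GFP-negative cells. Dcn, a matrix proteoglycan, was at 14.8 and 23.7 against 138 and 173 TPM (-3.04 ± 0.65, adjusted p = 0.0045). Of 20 macrophage and leukocyte genes, 6 rose in GFP-negative cells and none in ECs, with sums of 30.2 and 24.04 against 90.7 and 91.7 TPM. Adgre1 and Laptm5 had no read in ECs, and the complement gene C1qa was at 0.263 and 0.0245 TPM there and 13.1 and 10.97 TPM in GFP-negative cells. Of the 6 macrophage calls, 4 were kept in all 4 fits that each left out 1 library, and those of C1qa (adjusted p = 0.143) and Csf1r (adjusted p = 0.104) were lost without GFP-positive replicate 2. Of the calls lower in ECs, 3 of 5 folliculostellate and 2 of 4 fibroblast genes were kept in all 4. The fibroblast and macrophage sums in GFP-negative cells were far below the hormone sum of 43673 and 60387 TPM. Of 12 melanotroph and pituicyte genes 1 rose in ECs and 5 in GFP-negative cells, and of 11 genes of neurons and glia 2 rose in GFP-negative cells. In GFP-negative cells these lists summed to at most 23.8 and 21.2 TPM. Of all genes tested, 5.46% were called higher in ECs and 5.87% in GFP-negative cells. The part of these cell types in the genes higher in GFP-negative cells was not tested. For Sox2 the log2 fold change was -6.24 without GFP-negative replicate 1.

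Most mural markers were not called. Of 14 genes of pericytes and smooth muscle, 10 did not pass, 3 rose in ECs and 1, Pdgfrb, rose in GFP-negative cells. Over all genes tested, 5.46% and 5.87% were called in these directions. The list summed to 192 and 227 TPM in ECs and 40.1 and 28.99 TPM in GFP-negative cells. Kcnj8 and Abcc9, the subunits of a vascular potassium channel, were at 127 and 148 against 0.373 and 3.44 TPM (6.33 ± 0.78, adjusted p = 3.06e-05) and 18.96 and 28.1 against 1.67 and 1.54 TPM (3.93 ± 0.62, adjusted p = 0.000305), and Rgs5 at 41.2 and 45.2 against 15.7 and 10.9 TPM. Of the defining markers, Pdgfrb was below 1 TPM in both ECs, and the contractile genes Acta2 and Cnn1 were at 0.459 and 0.0149 TPM and at 0 in ECs. The call of Pdgfrb was not kept in every fit without 1 library, as given above. The call of Rgs5 was lost in 1 fit (adjusted p = 0.0788 without GFP-negative replicate 2). For Kcnj8 the log2 fold change was 5.63 without GFP-negative replicate 1 and 8.66 without GFP-negative replicate 2.

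None of 6 erythrocyte genes passed the test, with sums of 2210 and 1350 TPM in ECs and 814 and 1169 TPM in GFP-negative cells, so that globin RNA was present in all 4 libraries. The 17 immediate early genes respond within minutes to stimuli including tissue dissociation. Of these, 2 rose in ECs (5.46% of all genes tested did) and none fell. Their summed level was 4858 and 6276 TPM in ECs and 2562 and 3282 TPM in GFP-negative cells, with Fos at 789.7 and 1238 against 767 and 964 TPM (0.23 ± 0.80, adjusted p = 0.985) and the phosphatase Dusp1 at 240.2 and 343 against 60.02 and 80.9 TPM (2.04 ± 0.57, adjusted p = 0.0253). Of the 2 calls, that of Ier3 was kept in all 4 fits that each left out 1 library, and that of Dusp1 was lost in 3 (adjusted p = 0.0873 without GFP-negative replicate 1, 0.0554 without GFP-negative replicate 2 and 0.0504 without GFP-positive replicate 2). Their part in the results above was not tested.

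Chromatin at gene starts gave a readout that the RNA comparison did not use. ATAC-seq marks DNA that is open to a transposase, and 2 libraries of WT anterior pituitary GFP-positive cells were available, with no GFP-negative counterpart. A gene was counted where both libraries had a peak within 500 bp of any annotated start, past 2 in fold enrichment and 2 in −log10 q. This was so for 887 of 906 protein-coding EC-enriched genes (97.9%, 95% Wilson interval 96.7 to 98.7), 405 of 538 parenchyma-enriched genes (75.3%, 71.5 to 78.7) and 74.99% of all 16320 protein-coding genes tested. Of the 3499 genes that were not called but reached 10 TPM in both ECs, 98.4% had such a peak, and the intervals overlapped. Under the stricter limits of 4 in fold enrichment and 5 in −log10 q the shares were 93.7% (91.9 to 95.1) of the EC-enriched genes and 97.4% (96.8 to 97.9) of the others, and no longer overlapped. The intervals cover counting error over genes only.

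None of the 7 hormone genes had a peak at a start in both EC libraries, Gh included, although its RNA in ECs was among the most abundant. Prl and Pomc, whose promoters are shown above, had none, whereas Kdr, Tie1 and Mmrn1 had peaks of 8.84 and 9.59, 16.3 and 17.4 and 6.2 and 4.24 fold enrichment. By list, all 22 pan-endothelial genes and all 12 genes of fenestrae and caveolae had a peak, Vwf and Pacsin2 included. The share was 12 of 27 for lineage factors, 16 of 34 for granule genes and 0 of 20 for macrophage and leukocyte genes. Of the 19 EC-enriched genes without a peak in both libraries at any annotated start, those among the named genes were Lamb2, Gpihbp1, Tmem88, Ntf3, Rgs5 and Meox1.

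**Figure D5:**
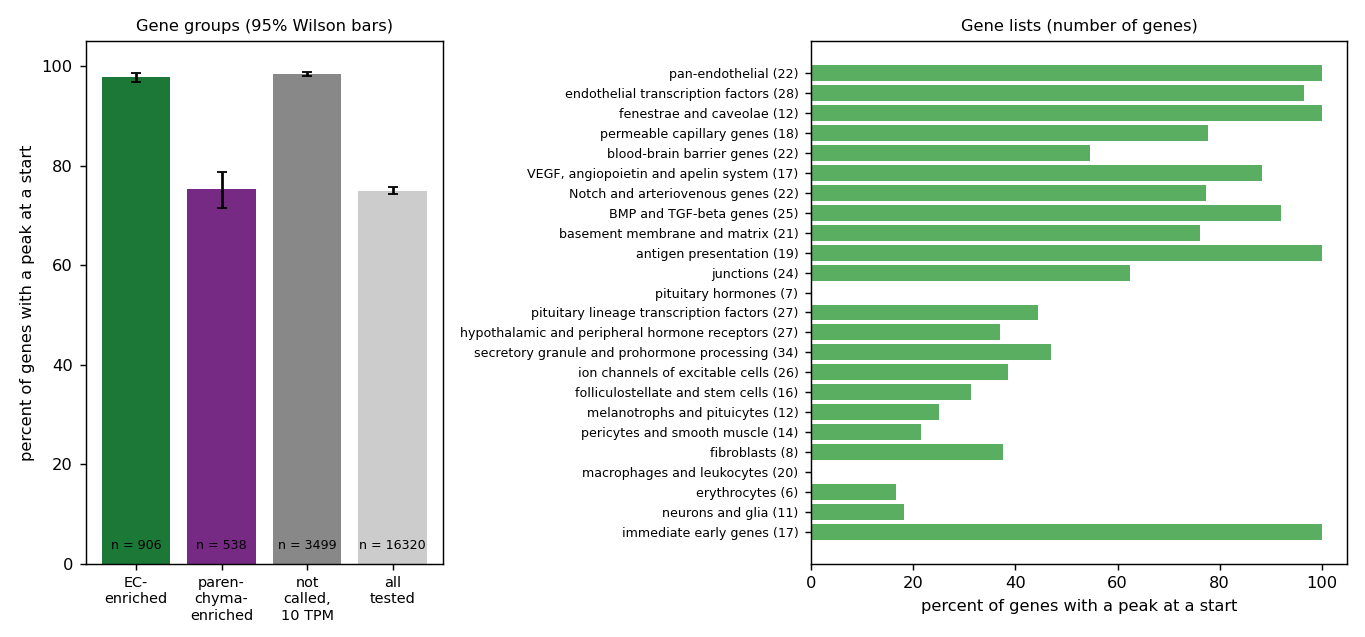
Percent of protein-coding genes with an ATAC-seq peak within 500 bp of a start in both WT anterior pituitary GFP-positive libraries, by RNA group on the left (bars with 95% Wilson intervals) and by gene list on the right. The EC-enriched genes and the genes that were not called but expressed in ECs are both near 98%, the parenchyma-enriched genes are at 75.3%, and the hormone and macrophage lists are at 0.

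The share of promoters with each motif differed by a few percentage points between the lists. RefSeq promoters of this length were matched by symbol for 710 of 919 EC-enriched and 421 of 549 parenchyma-enriched genes. GGAAG, searched on both strands, was in 77.2% of EC-enriched, 73.6% of parenchyma-enriched and 73.9% of all 27025 genes with a promoter. The longer CCGGAAG, which contains it, was in 8.87%, 13.3% and 9.93%. ATGNATA was in 6.34%, 6.18% and 10.2%, and TATAAA in 12.96%, 9.98% and 15.7%. Both lists were richer in G and C, with a median of 62% and 61.3% against 52.8% over all genes. A match is a description of the letters and not a bound site.

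The same contrast was measured in separate libraries of stabilized anterior pituitary, with the difference of genotype given above. Of the 919 EC-enriched genes, 918 had a log2 fold change above 0 there and 701 (76.3%) were called higher again, against 5.14% of all genes tested. Without GFP-negative stabilized replicate 2 the count was 461, of 991 genes then EC-enriched in WT. Without GFP-positive stabilized replicate 2, whose tissue label names the posterior lobe while its title names the anterior, it was 624, of 922. Of the 549 parenchyma-enriched genes, 537 had a log2 fold change below 0 there, whether or not they passed. The test called 316 (57.6%) lower in GFP-positive cells again, against 3.15% of all genes. Applying the EC-enriched rule in full gave 932 genes in stabilized mice, of which 686 were shared, 74.6% of the WT and 73.6% of the stabilized list.

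Plvap was at 1326 and 1145 TPM in stabilized ECs and 1.18 and 0 TPM in their GFP-negative cells, Igfbp3 at 888 and 616 against 0.969 and 0.112 TPM, and Itm2a at 707 and 895 against 3.78 and 4.705 TPM. Angpt1 was at 1.39 and 0.916 TPM in ECs and 21.6 and 15.7 TPM in GFP-negative cells, again higher in the latter, and Lepr at 33.8 and 13.2 against 2.096 and 0.141 TPM, again higher in ECs.

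The enrichment of genes in ECs over their tissue was set against that in WT cerebellum, whose ECs form the blood-brain barrier. The difference between the enrichments was called for 412 genes towards the anterior pituitary (1.93% of those tested) and 221 towards the cerebellum (1.04%). Among the 919 EC-enriched genes it was called for 189 and 7 genes, but these were chosen for a high enrichment in the anterior pituitary, which favours the first direction. For 72 of the 189 the level in anterior pituitary ECs was also called higher than in cerebellar ECs (1.54% of all genes tested, while 2.35% were lower). Against WT posterior pituitary, whose vessels are also fenestrated, the difference was called for 60 (0.281%) and 119 genes (0.558%), and among the EC-enriched genes for 15 and 25. The level in anterior pituitary ECs was also called higher than in posterior ECs for 2 of the 15 (0.347% of all genes tested) and called lower for 0 of the 25 (0.365% of all genes tested). Against cerebellum it was called lower for 4 of the 7. The level in ECs is itself a term of each difference. These counts are therefore not independent of how the genes were chosen, and nothing is read from the shares beside them.

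Sema3d, a secreted guidance factor, was at 36.2 and 32.8 TPM in anterior pituitary ECs, 0 and 0.0494 TPM in cerebellar ECs and 13.97 and 3.15 TPM in posterior pituitary ECs, against 0.00487 and 0.00609 TPM in anterior GFP-negative cells, and was named in both comparisons. The homeobox genes Irx3 and Irx5 were higher in anterior pituitary than in cerebellar ECs, Irx3 at 22.6 and 29.3 against 1.24 and 0.2502 TPM and Irx5 at 10.04 and 26.3 against 0 and 0.0142 TPM. Sema5b was at 17.4 and 86.1 TPM in anterior pituitary ECs with no read in cerebellar ECs, where it was found in GFP-negative cells (61.3 and 8.24 TPM), but its level in the ECs was not called different (edgeR, adjusted p = 0.0711). Its call in anterior pituitary was lost without GFP-negative replicate 1 (adjusted p = 0.118) or 2 (adjusted p = 0.116). Ntf3, neurotrophin 3, was at 64.7 and 35.1 TPM in anterior pituitary against 0 and 0.208 TPM in cerebellar ECs. In the other direction Sgms1, a sphingomyelin synthase, was at 21.2 and 20.2 TPM in anterior pituitary ECs and 255 and 115 TPM in cerebellar ECs, and Ptprg at 74.02 and 131 against 451 and 383 TPM. The EC-enriched calls of both were lost in at least 1 fit, Sgms1 without GFP-negative replicate 1 (adjusted p = 0.0688) and Ptprg without GFP-negative replicate 2 (adjusted p = 0.104) or GFP-positive replicate 2 (adjusted p = 0.0983). For the 5 genes less enriched than in posterior pituitary, Clic5, Ackr3, Plscr2, Fxyd5 and Lmcd1, ECs of both lobes expressed the gene, and the posterior GFP-negative libraries were at 0 TPM. Plscr2, a scramblase family member, was at 71.1 and 79.8 TPM in anterior and 562 and 240.1 TPM in posterior ECs, with 1.32 and 0.757 TPM in anterior GFP-negative cells. Its level in ECs of the 2 lobes was not called different (edgeR, adjusted p = 0.365).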

How the data were processed

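Total RNA of sorted cells was amplified with an Ovation kit and sequenced as single-end reads of 75 cycles. The authors quantified transcripts with Salmon 0.10.2 against GRCm38 (Ensembl 92) and deposited estimated counts, TPM and effective lengths per transcript. The deposited ATAC-seq peak lists, called per library with MACS2 2.1.1.20160309, gave fold enrichment and −log10 q. Bowtie2 2.3.2 and kallisto 0.44.0 are also in the submitters' processing notes.

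Here transcripts were summed to genes with GENCODE M21, estimated counts were rounded, and edgeR 4.0.16 (R 4.3.3, TMM, quasi-likelihood test) was fitted to all 24 sorted libraries by group, since 2 replicates per group give little information on spread alone. The fit used 21343 genes that passed edgeR's filter on low counts, and p-values were adjusted over all of them. The study's own tool for this contrast was not used here. An EC- or parenchyma-enriched gene was called and at 10 TPM or more in both libraries of the higher group. Differences of enrichment between tissues were tested as interaction contrasts. No label says that a GFP-positive and a GFP-negative replicate of the same number share a pool, so they were not paired. The p-values rest on the spread between replicates within groups, estimated jointly over all 24 libraries and not over the 4 alone. The 4 libraries held 29837291 to 31643746 estimated reads. Intervals and floors cover counting error only.

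Named genes are members of 24 gene lists and 36 ligand and receptor pairs, the 12 protein-coding genes with the largest change and the 12 with the highest level in each direction, and 5 genes per direction of each tissue difference. The libraries, lists and rules were chosen with earlier results of these data known. The fit was tested on simulated data with known changes. It recovered 0 of 50 changes of 2-fold, 6 of 50 of 4-fold, 15 of 50 of 8-fold and 35 of 50 of 16-fold. A gene that was not called may therefore still differ, even by 8-fold or more. Alternatives were DESeq2 1.42.0, other normalizations, no filter, a length offset, subsets of libraries, a replicate block, another TPM minimum, pseudocounts of 0.1 and 1 on TPM, other peak thresholds and each library left out. Tables and figures used Python 3.11.15, pandas 2.3.3, numpy 2.4.6, scipy 1.17.1 and matplotlib 3.10.9.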

Additional observations from a re-analysis of the deposited data

Results flagged for a closer look

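For 189 EC-enriched genes the enrichment in ECs over the GFP-negative cells was larger in anterior pituitary than in cerebellum, by a test of the difference itself (edgeR, Benjamini-Hochberg over all genes), and the 5 of them with the largest difference by the naming rule are given. In anterior pituitary GFP-negative cells Sema5b, Irx5, Irx3 and Ntf3 had no read, so that the size and rank of their differences rest on values at 0. The EC-enriched call of Sema5b was lost without GFP-negative replicate 1 (adjusted p = 0.118) or 2 (0.116). Sema5b, a transmembrane semaphorin, was at 17.4 and 86.1 TPM in anterior pituitary ECs and 0 and 0 TPM in the GFP-negative cells, against 0 and 0 and 61.3 and 8.24 TPM in cerebellum (adjusted p = 0.013). Irx5, an Iroquois homeobox factor, was at 10.0 and 26.3 against 0 and 0 TPM in anterior pituitary and 0 and 0.0142 against 8.10 and 2.39 TPM in cerebellum (adjusted p = 0.000534). Sema3d, a secreted semaphorin, was at 36.2 and 32.8 against 0.00487 and 0.00609 TPM in anterior pituitary and 0 and 0.0494 against 9.09 and 7.10 TPM in cerebellum (adjusted p = 5.92e-05). Irx3, an Iroquois homeobox factor, was at 22.6 and 29.3 against 0 and 0 TPM in anterior pituitary and 1.24 and 0.250 against 3.83 and 1.06 TPM in cerebellum (adjusted p = 0.000771). Ntf3, neurotrophin 3, was at 64.7 and 35.1 against 0 and 0 TPM in anterior pituitary and 0 and 0.208 against 0.0209 and 0.350 TPM in cerebellum (adjusted p = 0.0172).

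The enrichment was smaller than in cerebellum for 7, of which the 5 chosen by the same rule follow. Sgms1, a sphingomyelin synthase, was at 21.2 and 20.2 TPM in anterior pituitary ECs and 13.6 and 43.0 TPM in the GFP-negative cells, against 255 and 115 and 23.9 and 7.37 TPM in cerebellum (adjusted p = 0.00029). Heg1, a transmembrane partner of junction proteins, was at 36.4 and 46.8 against 8.27 and 12.7 TPM in anterior pituitary and 104 and 98.7 against 3.18 and 5.75 TPM in cerebellum (adjusted p = 0.0162). Ptprg, a receptor tyrosine phosphatase, was at 74.0 and 131 against 43.3 and 64.1 TPM in anterior pituitary and 451 and 383 against 45.4 and 14.2 TPM in cerebellum (adjusted p = 0.00351). Ece1, the endothelin-converting enzyme, was at 78.7 and 253 against 125 and 44.4 TPM in anterior pituitary and 129 and 87.7 against 10.2 and 6.04 TPM in cerebellum (adjusted p = 0.00936). Bnip2 was at 46.1 and 83.5 against 29.5 and 49.8 TPM in anterior pituitary and 91.1 and 104.9 against 19.7 and 12.3 TPM in cerebellum (adjusted p = 0.0199). The EC-enriched calls in anterior pituitary of 4 of these 5 were lost in fits that each left out 1 library. They were lost for Sgms1, whose mean TPM was higher in GFP-negative cells while its log2 fold change on reads was 1.41 ± 0.30, without GFP-negative replicate 1 (adjusted p = 0.0688). For Ptprg this was so without GFP-negative replicate 2 (0.104) or GFP-positive replicate 2 (0.0983), and for Ece1 without GFP-negative replicate 1 (0.0794) or GFP-positive replicate 2 (0.0502). Bnip2 lost it without GFP-negative replicate 1 (0.132), GFP-negative replicate 2 (0.174) or GFP-positive replicate 2 (0.376).

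Against posterior pituitary, the enrichment was larger in anterior pituitary for 15 EC-enriched genes, of which 5 are given by the same rule. Hspb8, a small heat shock protein, whose difference also rests on values at 0, was at 17.0 and 29.9 TPM in anterior pituitary ECs and 0 and 0 TPM in the GFP-negative cells, against 12.3 and 10.1 and 2.76 and 19.1 TPM in posterior pituitary (adjusted p = 0.0129). Sema3d, a secreted semaphorin, was at 36.2 and 32.8 against 0.00487 and 0.00609 TPM in anterior pituitary and 14.0 and 3.15 against 4.87 and 0.0274 TPM in posterior pituitary (adjusted p = 0.0188). Chn2, a Rac GTPase-activating protein, was at 41.2 and 42.2 against 1.46 and 0.533 TPM in anterior pituitary and 19.8 and 10.9 against 37.3 and 120.3 TPM in posterior pituitary (adjusted p = 0.0011). L3mbtl3 was at 11.9 and 15.7 against 0.186 and 1.995 TPM in anterior pituitary and 8.35 and 3.84 against 12.5 and 32.6 TPM in posterior pituitary (adjusted p = 0.0159). Trp53i11 was at 262 and 403 against 60.7 and 63.0 TPM in anterior pituitary and 146 and 54.5 against 208 and 331 TPM in posterior pituitary (adjusted p = 0.0029).

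It was smaller than in posterior pituitary for 25, and the 5 given by the same rule all had no read in the posterior GFP-negative libraries, so that the size of these differences rests on values at 0. Clic5, an intracellular chloride channel protein, was at 17.3 and 16.8 TPM in anterior pituitary ECs and 1.30 and 1.27 TPM in the GFP-negative cells, against 52.4 and 61.9 and 0 and 0 TPM in posterior pituitary (adjusted p = 0.00392). Ackr3, a chemokine scavenger receptor, was at 22.9 and 15.5 against 4.44 and 1.18 TPM in anterior pituitary and 58.0 and 30.2 against 0 and 0 TPM in posterior pituitary (adjusted p = 0.00019). Plscr2, a phospholipid scramblase family member, was at 71.1 and 79.8 against 1.32 and 0.757 TPM in anterior pituitary and 562 and 240.1 against 0 and 0 TPM in posterior pituitary (adjusted p = 0.0127). Fxyd5, a regulator of the sodium pump, was at 60.7 and 75.9 against 0.285 and 15.7 TPM in anterior pituitary and 134 and 116 against 0 and 0 TPM in posterior pituitary (adjusted p = 0.039). Lmcd1 was at 13.2 and 18.2 against 1.37 and 1.14 TPM in anterior pituitary and 46.5 and 12.5 against 0 and 0 TPM in posterior pituitary (adjusted p = 0.00379). The EC-enriched calls of Clic5 (0.0613 without GFP-negative replicate 2) and Lmcd1 (0.0574 and 0.0896 without GFP-negative replicates 1 and 2) were lost, as adjusted p.

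These genes were chosen among those EC-enriched in anterior pituitary, which is 1 side of each difference.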

How the results depend on the processing

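With 2 pools per group, a gene that was not called is not shown to be equal between the fractions. DESeq2 called more genes: 1793 higher and 2512 lower in ECs, 865 parenchyma-enriched genes, and differences of 1706 genes against cerebellum and 1117 against posterior pituitary. Without the filter on low counts these differences numbered 1505 and 1004. An offset for transcript length gave 712 genes higher in GFP-negative cells, 291 parenchyma-enriched, 322 and 106 differences, and 421 EC-enriched genes called again in stabilized mice. With only the 12 WT libraries 746 genes were higher in GFP-negative cells and the differences numbered 362 and 60. A TPM minimum of 1 gave 1049 parenchyma-enriched genes. The share of EC-enriched genes with a peak was 93.7% under the stricter threshold and 98.8% within 2000 bp. The other settings left these counts within 1.5 times, but similar counts did not always mean the same genes. The fit of the 4 WT anterior pituitary libraries alone kept 86.8% of the genes higher and 60.5% of those lower in ECs. The 12 WT libraries kept 78.2% and 56.8%, the length offset 67.8% and 55.4%, and DESeq2 99.8% and 100%. None of these settings called a gene in the opposite direction.

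Fits that each left out 1 library gave 847 to 1299 genes higher and 663 to 1316 lower in ECs, 676 to 991 EC-enriched and 282 to 537 parenchyma-enriched genes. The differences ranged from 503 to 729 and 169 to 253, the EC-enriched genes called again in stabilized mice from 461 to 746, and the share with a peak from 98.3% to 98.6%. Genes higher in GFP-negative cells fell to 819 without WT GFP-positive replicate 1 and 663 without replicate 2, and the parenchyma-enriched to 363 and 282. The fits without a stabilized library were added after seeing the data. With 1 ATAC-seq library left out, a peak was needed in the remaining library alone. The share with a peak could therefore not fall below the main 97.9%. A replicate block gave 1086 and 1036 genes, 892 EC-enriched and 525 parenchyma-enriched genes, differences of 535 and 124 and 687 genes called again in stabilized mice. Deviations of same-numbered libraries had a correlation of 0.000788 across 9696 genes. With 2 replicates per fraction this cannot show whether they share a pool, and the numbers were not used as pairs.

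Of 1728 alternative values from fits on reads for 108 named genes, 1619 kept their direction and call, 61 lost the call, 45 gained it and 3 reversed. The reversed log2 fold changes were 0.23 and 0.20 for Vegfa without GFP-negative replicate 2 and without GFP-positive replicate 1, and 6.92 for Vwf without GFP-negative replicate 2. Over the fits that each left out 1 library they ranged from -0.69 to 0.23 for Vegfa and from -3.33 to 6.92 for Vwf. Leaving out 1 WT library moved the fold by over 1.5 times for 44 of the 94 named genes called. As log2 of TPM with a pseudocount, the difference kept its direction in all 216 values, and moved by more than the replicate spread for 15 genes at a pseudocount of 0.1 and 39 at 1. The cause of these changes was not tested.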
